A study of Mus musculus with 22 samples.

Results

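The genes described here are 10 genes of smooth muscle cells: Myh11, Acta2, Tpm2, Cnn1, Tagln, Lmod1, Smtn, Itga8, Crip1 and Prdm6. They were followed across the hearts of 22 mice as the log2 ratio of heart RNA to a common reference RNA. Array probes were assigned to them through their RefSeq accessions, which gave 16 probes, and 15 of these passed the filter on dim probes. All 10 genes had such a probe, among 15503 genes tested in all. They were chosen by their log2 ratios in the 4 groups, values already known from an earlier look at these arrays. Those values are therefore a description, no p is given for these genes, and nothing is read from the counts of them that pass a rule.

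Female C57BL/6 mice, bought at 5 to 7 weeks of age and acclimatised for 1 to 3 weeks, received a single instillation of 40 µl into the trachea. It held titanium dioxide nanoparticles (nano-TiO2, 162 µg per mouse) or only the vehicle, which was saline with acellular lung lavage fluid of other mice. Hearts were taken 1 day or 28 days later, so that the later mice were also older. Each treatment had 5 mice at day 1 and 6 at day 28, with each array holding RNA of a separate mouse. Heart RNA was labelled with Cy5 and a reference RNA pooled from 11 mouse cell lines with Cy3, and dyes were never swapped. Hearts had been cut into pieces before freezing, per the labels, and the piece used for each array is not given. In such tissue RNA, fewer cells of a type and less RNA per cell cannot be told apart.

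Smooth muscle cells lie in the walls of arteries, arterioles and larger veins. They set vessel diameter by sliding actin and myosin filaments without the sarcomeres of heart muscle. Their contractile genes are classic targets of serum response factor (Srf), which binds a DNA element called the CArG box together with the coactivator myocardin (Myocd). In the heart such cells sit in the coronary vessels, in the roots of the great vessels and in the veins that join the atria, while developing or stressed heart muscle cells can also transcribe Acta2 and Tagln.

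Promoter windows are shown first, because Srf and its CArG box are the best known link among these genes. Windows from 250 bases before to 50 after the start were present for 7 of the 10 genes in the RefSeq promoter table (build GRCm38.p6). Myh11, Tagln and Prdm6 are named only. The 140 bases before the start are printed for Acta2 and Crip1, which held CArG-like elements, for Cnn1, which differed most between groups, and for Srf itself. Capitals mark a CArG box in Srf, and in Acta2 and Crip1 the same element with 1 G or C in its A/T core.
Acta2, chr19:34255374-34255513, minus strand: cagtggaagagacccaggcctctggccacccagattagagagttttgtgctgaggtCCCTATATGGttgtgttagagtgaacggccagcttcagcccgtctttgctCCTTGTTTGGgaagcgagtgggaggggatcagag
Crip1, chr12:113151872-113152011, plus strand: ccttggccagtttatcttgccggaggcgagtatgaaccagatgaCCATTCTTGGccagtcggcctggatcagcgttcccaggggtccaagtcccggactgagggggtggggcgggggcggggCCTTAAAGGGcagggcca
Cnn1, chr9:22099113-22099252, plus strand: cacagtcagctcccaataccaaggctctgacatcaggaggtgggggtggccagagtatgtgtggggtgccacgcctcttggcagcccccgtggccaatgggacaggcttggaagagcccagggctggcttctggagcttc
Srf, chr17:46556163-46556302, minus strand: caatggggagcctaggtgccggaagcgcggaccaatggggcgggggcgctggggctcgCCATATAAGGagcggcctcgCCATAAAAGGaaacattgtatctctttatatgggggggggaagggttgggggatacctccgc
The CArG box, searched on both strands, was found in 0 of the 7 windows and in 1.63% of all 32851 promoters of the table. With 1 G or C allowed in the core it was found in 2 of 7, against 8.5% of all promoters. Acta2 held CCCTATATGG from base -84 and CCTTGTTTGG from base -34, counted from the start, and Crip1 held CCATTCTTGG from base -96 and CCTTAAAGGG from base -18. Srf held 2 strict matches, from bases -82 and -62. CATTCC, the core bound by TEAD factors, was found in 3 of 7 (Lmod1, Acta2 and Smtn; 14.7% of all), GGGCGG in 4 of 7 (35.7%) and TATAAA in 0 of 7 (13.6%). Matches to different motifs could overlap, both strands were read for each, and a match is a description of the letters and not a binding site.

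The tissue was checked next, since the labels name heart as the tissue but lung in their extraction text. Myh6, Tnnt2 and Actc1, genes of the heart muscle filament, lay 4.95 ± 0.25 (SD, 19 arrays with a value), 5.66 ± 0.22 (SD, 21 arrays) and 5.96 ± 0.36 (SD, 22 arrays) above the reference in log2. Sftpc and Sftpb, surfactant genes of the lung, exceeded background on 0 of 22 arrays. The share of probes detected in Cy5 ran from 32.7% to 52.8% over the arrays, and precision is limited by how many arrays a group has. On 3 arrays (control day 1 replicate 2, nano-TiO2 day 1 replicate 1 and nano-TiO2 day 28 replicate 1) the mean of 7 atrial markers lay at -2.67, -2.74 and -2.68 relative to the mean of its group means. On 5 arrays (control day 28 replicates 1, 3, 4 and 5 and nano-TiO2 day 1 replicate 2) liver or lung epithelium markers were raised. Of 10 listed lung epithelium genes only 2 could be tested, Scgb1a1 and Lamp3. Day 28 controls differed from day 1 controls by 1.18 in Scgb1a1 and by -0.27 in Lamp3. In control day 28 replicate 5 the mean of these 2 genes was 1.71, and the liver mean was 0.05. Both sets of arrays were recognised after the data were seen, and results without them are given below. Of the 7 atrial markers, Myl4, Myl7, Nppa and Stard10 were above background on 22 of 22 arrays. The first set is thus low in atrial transcripts and not without them.

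Across the 4 groups, 9 of the 10 genes were ordered alike: lowest in day 1 controls, highest in day 28 controls, with both nano-TiO2 groups between. At day 1, 9 of 10 were above 0 (54.2% of all genes tested), with a median difference of 0.96 in log2 (nano-TiO2 minus control), against 0.014 over all genes. At day 28, 1 of 10 was above 0 (48.1% of all genes), with a median of -0.80, against -0.0057. In control mice day 28 exceeded day 1 by a median of 1.57, against -0.0024, and in nano-TiO2 mice the same step was -0.20, against -0.0161. These comparisons share groups with each other. Smtn, a cytoskeletal protein of contractile smooth muscle, was the gene that did not follow this order.

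**Figure D1:**
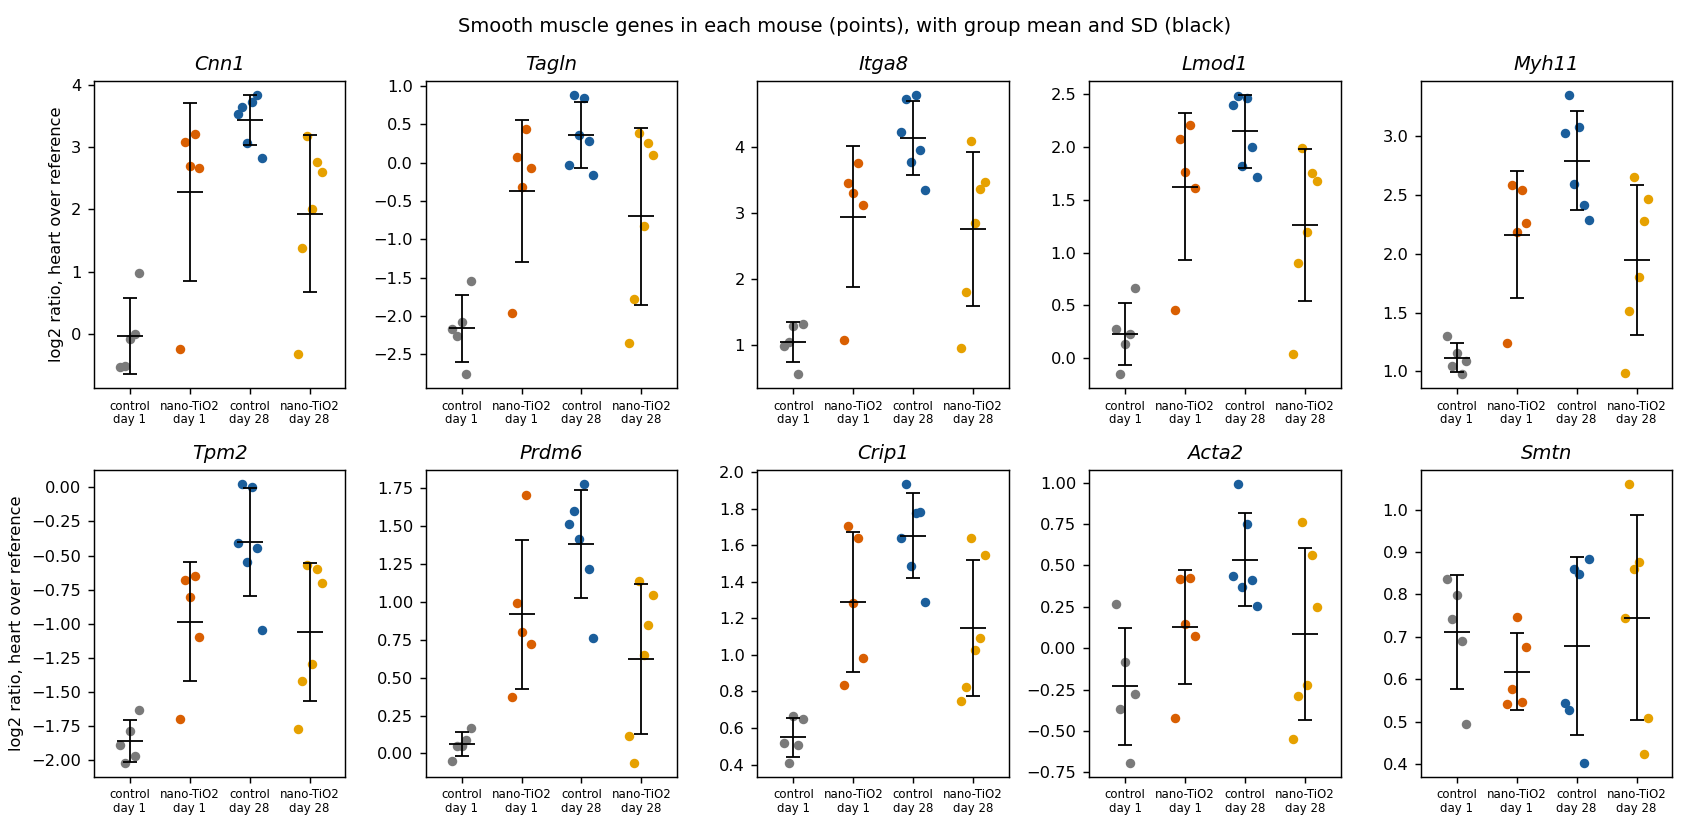
Log2 ratio of heart to reference RNA (vertical axis, its own scale in each panel) of the 10 genes in every mouse, by group; points are mice, black bars the group mean and SD. In Cnn1 the 5 day 1 controls lie between -0.54 and 0.97 and the 6 day 28 controls between 2.83 and 3.84, while 1 nano-TiO2 mouse of each day lies with the day 1 controls.

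Among the filament genes, Myh11, the myosin heavy chain of smooth muscle, read 0.98, 1.05, 1.09, 1.16 and 1.31 in the day 1 controls. It read 1.24, 2.19, 2.26, 2.54 and 2.58 in the nano-TiO2 mice of that day. Thus 4 of 5 treated mice lay above every control, while nano-TiO2 replicate 1 lay among them. Day 28 controls ran from 2.28 to 3.35 (median 2.81) and day 28 nano-TiO2 mice from 0.98 to 2.65 (median 2.04), so these groups overlapped. Myh11 differed by 1.05 ± 0.28 (log2 ± SE) at day 1, 2.07-fold, and by -0.84 ± 0.25 at day 28. Between controls it was 1.68 ± 0.26 higher at day 28, a 3.20-fold difference without overlap of the groups.

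Tpm2 encodes beta-tropomyosin, which lies along actin and is also made by slow skeletal muscle. Its group means were -1.86 ± 0.15 (SD, n = 5) in day 1 controls, -0.98 ± 0.44 (n = 5) with nano-TiO2 at day 1, -0.40 ± 0.40 (n = 6) in day 28 controls and -1.06 ± 0.51 (n = 6) with nano-TiO2 at day 28. The difference was 0.87 ± 0.23 (SE) at day 1 and -0.66 ± 0.21 at day 28. A second Tpm2 probe gave 0.88 and -0.45, close to the first.

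Acta2, smooth muscle alpha-actin, is the most used marker of these cells, yet it moved least among the 9 genes. Its brightest probe gave means of -0.23 ± 0.35 (SD, n = 5), 0.13 ± 0.35 (n = 5), 0.54 ± 0.28 (n = 6) and 0.08 ± 0.52 (n = 6) in the groups in the same order, and all 4 ranges met. The day 1 difference was 0.36 ± 0.23 (SE) and the day 28 difference -0.45 ± 0.21. The 3 probes of Acta2 disagreed: the dimmest gave 0.31 and -0.53 for the same differences, while the second gave 0.03 and 0.07 and correlated with the first at r = 0.24 across the 22 mice. All 3 were well above background on 22 of 22 arrays.

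Among the regulators of actin, Cnn1 (calponin, which holds back actin-activated myosin) had the widest range. Day 1 controls read -0.54, -0.53, -0.08, -0.01 and 0.97, and nano-TiO2 mice of that day read -0.25, 2.67, 2.70, 3.08 and 3.22. The lowest of these treated values belongs to replicate 1, which lay inside the control range, while the other 4 lay above it. Day 28 controls ran from 2.83 to 3.84 (median 3.59), and day 28 nano-TiO2 mice from -0.33 to 3.18 (median 2.30). Cnn1 differed by 2.32 ± 0.58 (log2 ± SE) at day 1, 5.00-fold. At day 28 it differed by -1.51 ± 0.53, a 2.84-fold lower level with nano-TiO2. Day 28 controls exceeded day 1 controls by 3.48 ± 0.56, or 11.1-fold.

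Tagln (transgelin, an actin cross-linker) behaved alike. Day 1 controls read -2.76, -2.26, -2.18, -2.08 and -1.55, and nano-TiO2 mice of that day -1.96, -0.32, -0.07, 0.07 and 0.44. Again only replicate 1 of the treated mice lay within the controls. Day 28 controls ran from -0.17 to 0.89 (median 0.32), and nano-TiO2 mice from -2.35 to 0.39 (median -0.36). Tagln differed by 1.80 ± 0.46 (log2 ± SE) at day 1, by -1.06 ± 0.42 at day 28 and by 2.53 ± 0.44 between controls (5.77-fold). Its second probe gave smaller values of the same sign, 0.92 at day 1 and -0.75 at day 28.

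Lmod1 (leiomodin, which starts new actin filaments in smooth muscle) read -0.15, 0.14, 0.23, 0.27 and 0.66 in day 1 controls and 0.46, 1.61, 1.77, 2.08 and 2.21 in nano-TiO2 mice of that day. Its ranges met through replicate 1 of the treated mice alone. It differed by 1.39 ± 0.32 (SE) at day 1, by -0.89 ± 0.29 at day 28 and by 1.92 ± 0.30 between controls. Smtn, in contrast, had group means of 0.71 ± 0.13 (SD, n = 5), 0.62 ± 0.09 (n = 5), 0.68 ± 0.21 (n = 6) and 0.75 ± 0.24 (n = 6), with differences of -0.09 ± 0.11 (SE) at day 1 and 0.07 ± 0.10 at day 28. It has 1 probe, well above background on 22 of 22 arrays.

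**Figure D2:**
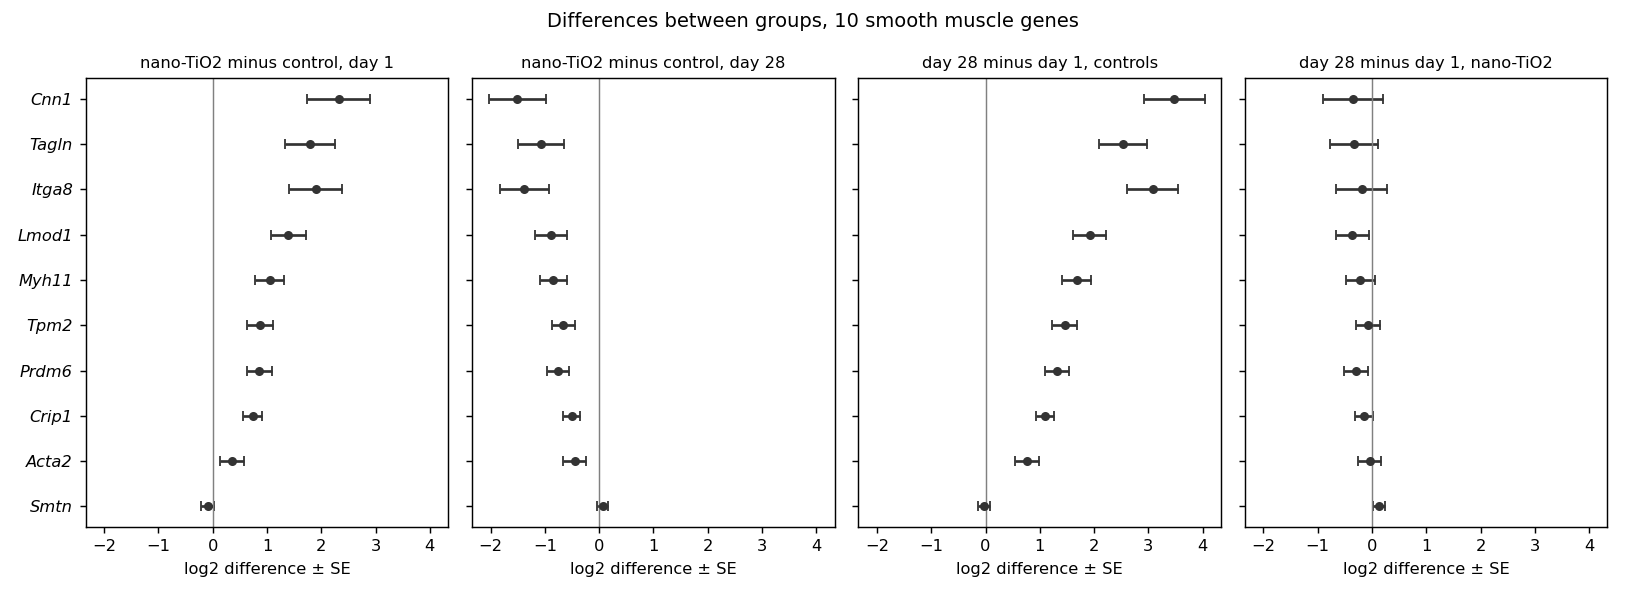
Log2 difference between groups (horizontal axis; points, with SE as bars) for the 10 genes in 4 comparisons. Cnn1 is at 2.32 at day 1 and -1.51 at day 28 and Smtn at -0.09 and 0.07, and in nano-TiO2 mice the step from day 1 to day 28 lies between -0.36 and 0.13 for all 10.

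Itga8, the alpha8 integrin through which smooth muscle and fibroblast-like cells hold matrix, read 0.57, 0.99, 1.05, 1.30 and 1.32 in day 1 controls. Nano-TiO2 mice of that day read 1.09, 3.12, 3.30, 3.45 and 3.75, where 4 of 5 lay clear of the controls. Day 28 controls ran from 3.34 to 4.78 (median 4.09) while nano-TiO2 mice of that day read 0.96, 1.81, 2.85, 3.36, 3.46 and 4.08. Itga8 differed by 1.90 ± 0.49 (log2 ± SE) at day 1, by -1.38 ± 0.45 at day 28 and by 3.08 ± 0.47 between controls (8.46-fold). A second probe gave 1.47, -1.20 and 2.37, and another was above background on 0 of 22 arrays. The reference RNA was above background for the main Itga8 probe on 0 of 22 arrays, so its distance from the reference has no fixed size, while differences between mice rest on the heart channel.

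Crip1, a small LIM-domain protein that is not confined to smooth muscle, separated the day 1 groups. Controls lay between 0.41 and 0.67 and nano-TiO2 mice between 0.84 and 1.70, without overlap, and the difference was 0.74 ± 0.18 (SE). At day 28 the difference was -0.50 ± 0.16, with overlap. Prdm6, a transcriptional repressor of smooth muscle, was not well above background on any of the 5 day 1 control arrays. It was above background on 4 of 5 arrays of nano-TiO2 at day 1, on 6 of 6 of the day 28 controls and on 4 of 6 of nano-TiO2 at day 28. A fold against the first group is therefore a bound, taken against the dimmest signal that counts as above background: Prdm6 was at least 1.61-fold higher with nano-TiO2 at day 1, and at least 2.05-fold higher in day 28 than in day 1 controls. At day 28 it differed by -0.76 ± 0.21 (SE), where 2 of 6 nano-TiO2 readings were not well above background. Its reference signal was above background on 0 of 22 arrays.

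Counts by comparison are given with the share of all 15503 genes that meet the same rule. The choice of the 10 genes used these comparisons, so the counts are no evidence about them. At day 1, limma called 0 of the 10 genes after Benjamini-Hochberg adjustment at 0.05 (0% of all genes, with 1338 genes at an unadjusted p under 0.05), and 2 of 10 (Prdm6 and Crip1) were higher without overlap, against 1.27%. For Prdm6 the edge of both groups lay between readings not well above background. At day 28, 0 of 10 were called (0%, with 1178 genes at an unadjusted p under 0.05) and 0 of 10 were lower without overlap, against 0.071%. Between controls, 9 of 10 were called higher, against 7.02% of all genes, and 8 of 10 did not overlap, against 4.66%. With slide as a block limma called 0 genes in this comparison (2810 at an unadjusted p under 0.05), so these calls did not hold with that term. They were lost as well without the 5 arrays with liver or lung epithelium markers, where 1 gene was called and none of the 10. Only replicates 2 and 6 of the day 28 controls remained there, and 9 of the 10 genes were still above 0. Whether the loss came from the fewer mice was not tested. In nano-TiO2 mice the step from day 1 to day 28 gave 0 of 10 (0%, with 697 genes at an unadjusted p under 0.05). The day 28 difference minus the day 1 difference gave 0 of 10 as well (0%, 2287 genes at an unadjusted p under 0.05), with a median of -1.75 over the 10 genes and -0.0203 over all. In this last contrast 4 of the 10 were called with the scanner log ratios, where 8 of all genes were called higher and 37 lower. With scan day as a block 2 of the 10 were called, and 6 of all genes, each of them lower.

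With the scanner log ratios and all mice kept, limma called 6 genes higher and 1 lower at day 1, and none of the 10. With the loess ratios, leaving out a single mouse also changed the day 1 counts. Without nano-TiO2 day 1 replicate 1, limma called 21 genes at day 1 and 5 of the 10, and 311 genes and 8 of the 10 in the difference of the differences. In the same contrast, 178 genes and 8 of the 10 were called with replicate 3 of the day 28 nano-TiO2 mice left out, 13 genes and 4 of the 10 with replicate 6 of that group left out, and 28 genes and 7 of the 10 with replicate 6 of the day 28 controls left out. Without control day 28 replicate 6, limma called 3 genes at day 28. Without the 3 arrays with the lowest atrial means, 40 genes and 6 of the 10 were called at day 1. In the difference of the differences, 95 genes and 8 of the 10 were called without them.

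The mean of the 10 genes in each mouse, after subtracting for every gene the mean of its group means, shows how the groups were made up. It averaged -0.94 ± 0.17 (SD, n = 5) in day 1 controls, with a range from -1.12 to -0.70. It averaged 0.17 ± 0.61 (n = 5) with nano-TiO2 at day 1, 0.78 ± 0.31 (n = 6) in day 28 controls and -0.01 ± 0.66 (n = 6) with nano-TiO2 at day 28. The spread was thus wider in both treated groups: nano-TiO2 mice ran from -0.87 to 0.70 at day 1 and from -1.03 to 0.73 at day 28. Replicate 1 of each treated group held the low end, inside the range of the day 1 controls. Both of these mice are among the 3 with the lowest atrial means. The medians were 0.29 with nano-TiO2 at day 1 and 0.15 at day 28, and the spread without replicate 1 was not examined. The group differences of the mean of the 10 genes were 1.12 at day 1, -0.80 at day 28 and 1.73 between controls. They were 1.34, -0.59 and 1.69 without the 3 arrays with the lowest atrial means. Without the 5 arrays with liver or lung epithelium markers they were 1.03, -0.74 and 1.67.

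Up to 4 mice shared a slide, and the same comparison could be made between mice of 1 slide. At day 1 the mean of the 10 genes differed by 0.07, 0.90, 1.63 and 1.82 on 4 slides. At day 28 it differed by -1.83, -1.62, -1.20, -0.31, 0.08 and 0.09 on 6 slides, so 2 of 6 slides did not go the way of the group difference. Between controls the 3 slides gave 1.40, 1.51 and 1.89. In nano-TiO2 mice the step to day 28 gave -1.57 and 0.18 on 2 slides. Each of these values set 1 mouse against 1 other. The values 0.07, 1.63, -1.83, 1.89 and -1.57 each include 1 of the 3 arrays with the lowest atrial means, whose part was not tested. By scan day, the day 1 difference was 1.17, 0.85 and 1.36 and the day 28 difference -0.55, -1.73 and -0.12. The difference between controls was 1.75, 1.98 and 1.42 on the 3 scan days.

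**Figure D3:**
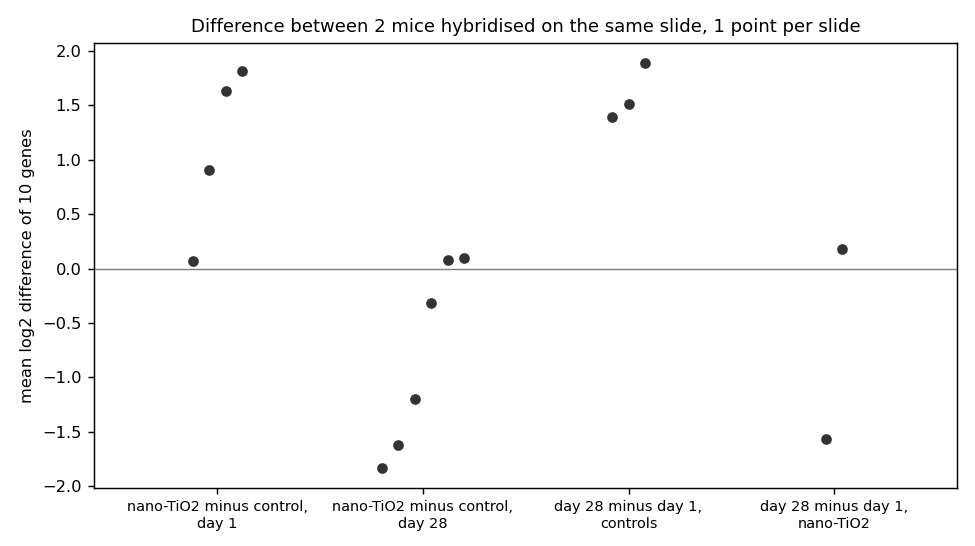
Difference of the mean of the 10 genes (log2, vertical axis) between 2 mice on the same slide, 1 point per slide, in 4 comparisons. All 3 slides lie above 0 between controls (1.40 to 1.89) and all 4 at day 1 (0.07 to 1.82), while the 6 slides at day 28 run from -1.83 to 0.09.

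Apart from Smtn, the genes varied together from mouse to mouse also within groups. With group means subtracted, the correlation of a gene with the mean of the other 9 across the 22 mice was r = 0.983 for Itga8, 0.965 for Lmod1, 0.952 for Tagln, 0.949 for Tpm2, 0.945 for Myh11 and 0.902 for Cnn1. It was lower for Crip1 (0.850), Acta2 (0.843) and Prdm6 (0.838), and -0.283 for Smtn. The closest pair was Itga8 and Tagln (r = 0.957, rho = 0.931). All values come from the same arrays and normalization, so these correlations describe the arrays and carry no test.

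Outside the 10, genes with the most similar pattern within groups, of 10204 with a symbol, were Csrp2 (r = 0.959), Vim (0.952), Npr3 (0.949), Dkk3 (0.943), Serpinf1 (0.942), Cst9 (0.940), Cfhr2 (0.937), Bex4 (0.934) and Col18a1 (0.924). Csrp2 is a LIM protein of smooth muscle, Vim the intermediate filament of mesenchymal cells and Npr3 the clearance receptor of natriuretic peptides. Csrp2 differed by 1.10 ± 0.38 (log2 ± SE) at day 1 and -0.94 ± 0.35 at day 28. Dkk3, a secreted glycoprotein, differed by 2.28 ± 0.75 and -1.21 ± 0.69.

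Further contractile genes of smooth muscle moved less. Of 15 listed, 9 could be tested, 8 were above 0 at day 1 and 7 below 0 at day 28, with medians of 0.10 and -0.21 and 0 called by limma at either day. Between controls 4 of 9 were higher after adjustment (7.02% of all genes), and none with slide as a block: Mylk, Csrp1, Ppp1r14a and Myl6, of which Myl6 was named after its value was seen. Mylk, the kinase that phosphorylates the myosin light chain, differed by 0.93 ± 0.16 between controls. It differed by 0.30 ± 0.17 at day 1 and by -0.48 ± 0.15 at day 28. Its rank by p at day 1 and day 28 led to its being named, and those comparisons share the control groups. Ppp1r14a, an inhibitor of the myosin phosphatase, differed by 0.62 ± 0.20 at day 1 (limma adjusted p = 0.478). Csrp1, a LIM protein of the actin cytoskeleton, differed by -0.54 ± 0.15 at day 28 (limma adjusted p = 0.637).

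Of the regulators of the smooth muscle programme, 11 of 15 were measured, and 9 were above 0 at day 1 (54.2% of all genes) and 6 at day 28 (48.1%), with medians of 0.19 and 0.02 and 0 called by limma at either day. Between controls 1 of 11 was higher after adjustment (Klf4, a repressor of contractile genes, 0.66 ± 0.18; 7.02% of all genes) and 1 lower (Fhl2, a LIM cofactor of Srf, -0.62 ± 0.17; 3.44%). With slide as a block neither was called. Srf differed by 0.19 ± 0.16 at day 1 and -0.02 ± 0.16 between controls, and Myocd by 0.34 ± 0.26 and -0.05 ± 0.25, and these and Klf4 were named after their values were seen. Fhl2 differed by -0.43 ± 0.18 at day 1 and 0.29 ± 0.16 at day 28, and Tgfbr2, a receptor for TGF-beta, by 0.35 ± 0.18 and -0.31 ± 0.17. Heart RNA does not show which cells made these transcripts, so the values do not describe smooth muscle cells alone.

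Pericytes, the mural cells of capillaries, share some genes with smooth muscle. Of 11 markers measured of 12, 4 were above 0 at day 1 and 5 at day 28, with medians of -0.07 and -0.01 and 0 called by limma. Mcam, an adhesion molecule also found on smooth muscle and endothelium, differed by 0.61 ± 0.23 at day 1, Kcnj8, the pore of a potassium channel, by -0.26 ± 0.11, and at day 28 Anpep by -0.34 ± 0.14 and Abcc9 by 0.31 ± 0.16. Between controls 1 of 11 was higher and 2 were lower after adjustment (7.02% and 3.44% of all genes), and none with slide as a block. Matrix genes of the vessel wall, 8 measured of 9, were split 4 to 4 at day 1 and 3 to 5 at day 28, with 0 called. Eln (elastin) differed by 0.63 ± 0.19 and Fbn1 (fibrillin) by 0.32 ± 0.14 at day 1, and Mfap4 by -0.67 ± 0.30 and Ltbp4 by -0.17 ± 0.15 at day 28.

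Several marker lists of other parts of the heart moved with the 10 genes, and their part in these differences was not tested. Cardiomyocyte markers went the other way, with 8 of 10 below 0 at day 1 (median -0.09) and 9 of 10 above 0 at day 28 (0.15). At day 1 all 7 measured atrial markers were above 0 (median 1.27), as were all 8 adipocyte markers (2.47), all 9 mesothelium markers (0.77) and all 10 fibroblast markers (0.33), with 0 called. At day 28 6 of 7 atrial, 8 of 8 adipocyte, 9 of 9 mesothelium and 10 of 10 fibroblast markers were below 0, with medians of -0.97, -1.91, -0.61 and -0.26. All 6 measured liver markers were also below 0 at day 28 (median -1.72), with 3 of 6 above 0 at day 1, and all 6 skeletal muscle markers were above 0 at day 1 (0.19), with 3 of 6 at day 28. Between controls 6 of 8 adipocyte, 9 of 9 mesothelium, 3 of 10 fibroblast and 2 of 7 atrial markers were higher after adjustment, against 7.02% of all genes, and 6 of 10 cardiomyocyte markers lower (median -0.38), against 3.44%. None of these calls held with slide as a block (0 genes called), and 1 gene of all was called without the 5 arrays with liver or lung epithelium markers. In the latter fit only replicates 2 and 6 of the day 28 controls remained. The adipocyte mean ran from -2.16 to -0.96 in day 1 controls and from 0.06 to 2.75 in day 28 controls. In nano-TiO2 mice it ran from -2.05 to 2.20 at day 1 and from -2.05 to 1.89 at day 28. The atrial mean ran from -2.67 to 0.18, from 0.56 to 1.19, from -2.74 to 0.94 and from -2.68 to 0.91 in the same order. Of the markers, 2 of 8 of the adipocyte list and 1 of 7 of the atrial list were above background on no array of the day 1 controls.

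**Figure D4:**
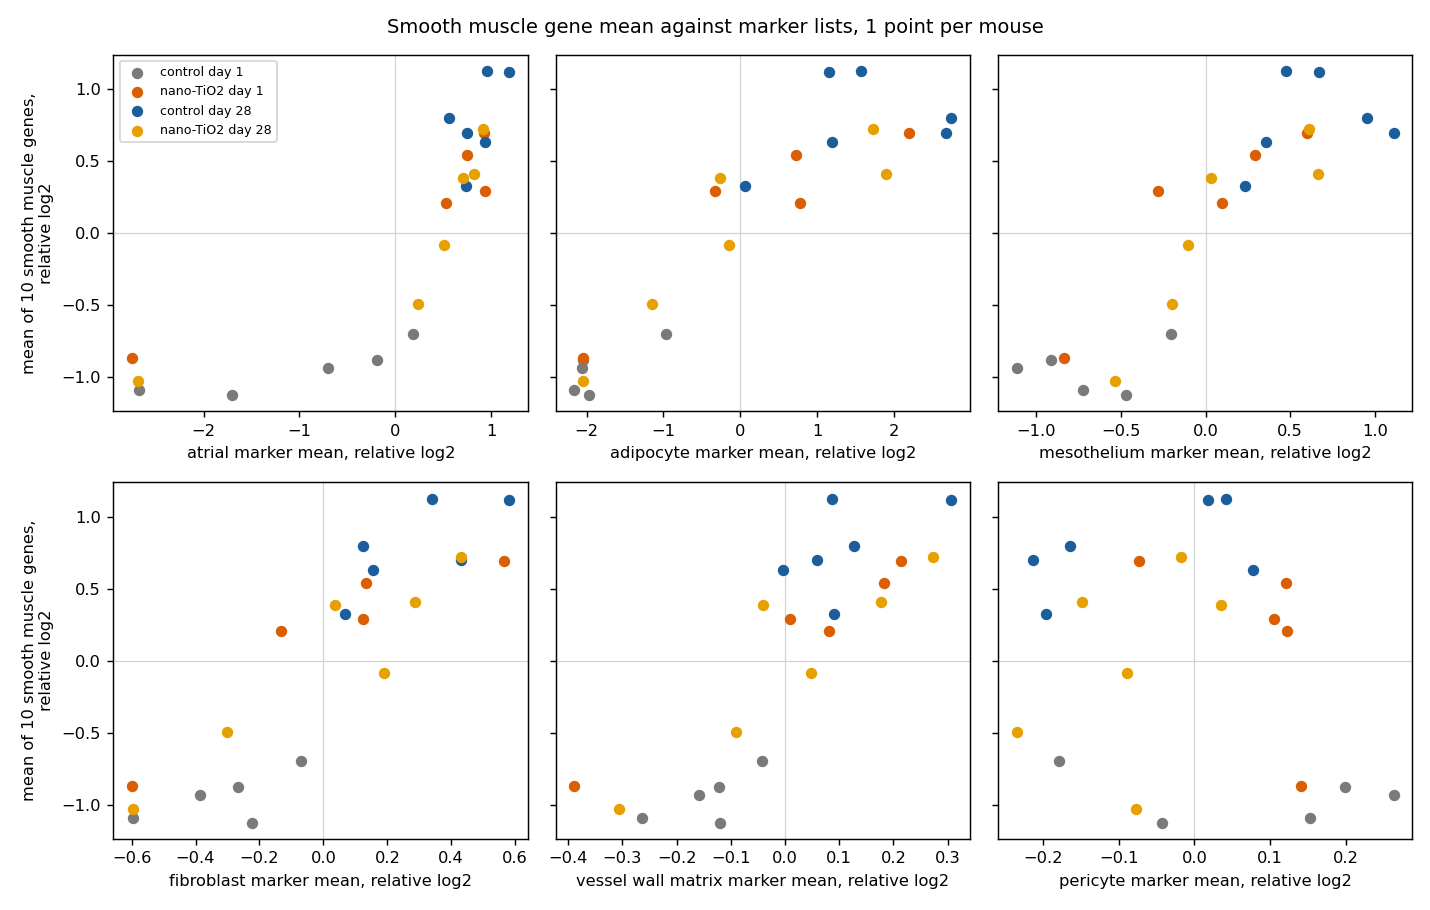
Mean of the 10 smooth muscle genes (vertical axis) against the mean of a marker list (horizontal axis), both in log2 relative to the mean of the group means. Each point is 1 mouse coloured by group, with 1 panel per list. The 3 mice with an atrial mean of -2.67 or less, from 3 different groups, have smooth muscle means no higher than -0.87. All day 1 controls lie low on the vertical axis, from -1.12 to -0.70. Their atrial means run from -2.67 to 0.18 and their adipocyte means from -2.16 to -0.96. The pericyte panel shows no clear order between its marker mean and the smooth muscle mean.

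Within groups, the mean of the 10 genes correlated across the 22 mice at r = 0.888 (rho = 0.772) with the fibroblast list, 0.887 (0.745) with vessel wall matrix, 0.825 (0.779) with atrial, 0.817 (0.678) with adipocyte, 0.756 (0.824) with further contractile genes and 0.747 (0.695) with mesothelium markers. Leaving out the 2 mice farthest from the median of the marker mean gave 0.787, 0.755, 0.563, 0.744, 0.693 and 0.641. The values were 0.630 for endothelium, 0.564 for skeletal muscle, 0.357 for liver, 0.296 for smooth muscle regulators, 0.072 for pericyte, -0.118 for lung epithelium and -0.653 for cardiomyocyte markers. These 13 correlations are descriptive and share arrays and normalization.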

How the data were processed

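Hearts of 22 mice were measured on 22 Agilent 2-colour arrays on 9 slides, scanned on 3 days. The deposited scanner files give median intensities of spots and of the local background, unsubtracted, for Cy5 and Cy3, and a log10 ratio of Cy5 to Cy3, which per the file headers was background-subtracted and dye-normalized by Feature Extraction 10.7.3.1. The submitters' processing notes name version 9.5.3.1. The authors' deposited series matrix is on a log2 scale by a method not given in the sources used here. It correlated at r from 0.992 to 0.998, with slopes from 0.984 to 0.996, with loess ratios without background subtraction, which settles its direction and scale, while its centring was not examined.

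Median intensities were corrected with normexp (offset 50) and normalized by loess within arrays in R 4.3.3 with limma 3.58.1 (the data.table package, version 1.17.8, Python 3.11.15, pandas 2.3.3 and matplotlib 3.10.9 for files and plots). Outlier spots (0.299%) were left out, and 0 spots were saturated. Probes well above background on at least 5 arrays were kept. Of the probes, 23374 matched 16535 symbols by RefSeq accession, and the brightest kept probe in Cy5, on average, stood for a gene. This left 15503 genes, 10477 of them with a symbol. Groups were compared with lmFit and eBayes over all 22 arrays, adjusted by Benjamini-Hochberg over all genes. The fit was tested on simulated data.

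The members and the lists were chosen with earlier results of these data known. Named genes are the members, the 10 genes closest to their mean within groups (1 of them is not reported here), of each of 4 companion lists the 2 with the smallest p at day 1 and at day 28, and tissue genes. Clone names and gene predictions were skipped. Alternatives covered background correction, normalization, filters, probe summaries, slide or scan day as a block, the series matrix, the scanner ratios and each replicate left out. The lists held further contractile genes, regulators, pericyte, vessel wall matrix, cardiomyocyte, atrial, adipocyte, mesothelium, fibroblast, endothelium, lung epithelium, liver and skeletal muscle markers.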

Additional observations from a re-analysis of the deposited data

Results flagged for a closer look

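In 44 tests of the 10 genes and their mean in each group, the most distant mouse was set against the rest by Dixon's criterion at 95%, which chance meets in about 1 of 20 groups, and 2 met it. Itga8 read 1.09 in nano-TiO2 day 1 replicate 1, against 3.12 to 3.75 in the other 4 mice of that group. Cnn1 read -0.25 in the same mouse, against 2.67 to 3.22 in the others. This mouse is also 1 of the 3 with the lowest atrial means (-2.74). The part of that in its smooth muscle values was not tested.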

How the results depend on the processing

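Of 295 values of the comparisons under alternatives, 273 stayed within the replicate spread or within 1.5 times the count, and 22 did not. The mean of the 10 genes kept its sign under every alternative at day 1 (0.92 to 1.52), at day 28 (-0.97 to -0.59) and between controls (1.47 to 2.20). In nano-TiO2 mice the step to day 28 ran from -0.45 to 0.02, above 0 without nano-TiO2 day 28 replicate 1 alone. The difference of the differences was -1.92, and -2.47 with plain background subtraction.

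Counts of called genes moved more. Between controls (1623, 67.1% of them higher) they were 79 (92.4% higher) with normexp fitted on all spots, 3865 (47.3%) with the scanner log ratios, 87 (100%) with median centring, 0 with slide as a block, 1 without the 5 arrays with liver or lung epithelium markers, and 958 to 2069 with 1 mouse left out, of which control day 1 replicates 1 and 2 and control day 28 replicates 4 and 5 moved the count by over 1.5 times (1059, 958, 961 and 1067). The Cy5 channel alone gave 48.3% higher and plain subtraction 78.2%. At day 1 (0) they were 7 with the scanner log ratios and 40 without the 3 arrays with the lowest atrial means. With 1 mouse left out they were 0 to 21. At day 28 (0) they were 0 to 3 with 1 mouse left out. In nano-TiO2 mice (0) there was 1 with plain subtraction. The difference of the differences (0) gave 45 with the scanner log ratios, 6 with scan day as a block, 95 without the 3 arrays and 0 to 311 with 1 mouse left out. The cause of these moves was not tested, except that leaving arrays out lowers the number of mice. With median centring the median of all genes was 0.17 at day 1 (0.014 with loess), 0.13 between controls (-0.0024) and -0.27 in the difference of the differences (-0.0203). Both sets of arrays were chosen after seeing the data. Mice of different groups could not be paired by replicate, because the labels give no replicate numbers that groups share. Slides were used as a block instead. Prdm6 lies near background in day 1 controls, and its day 1 difference ran from 0.56 to 3.64 over the alternatives.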
